A study of Bubalus bubalis with 6 samples.

Results

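The genes described here code for cell adhesion and cell guidance proteins, and are those whose symbol begins with the letters of these families, a rule that uses no measured value, though it was set with earlier results of these data known. They are 66 of the 7932 gene names on the array: cadherins (CDH), protocadherins (PCDH), Eph receptors (EPHA, EPHB) and ephrins (EFNA), semaphorins (SEMA) and plexins (PLXN), neurexins (NRXN) and a neuroligin (NLGN1), contactins (CNTN), the IgLON proteins OPCML and NTM, claudins (CLDN), and Slit, Robo and UNC5 guidance proteins. UNC50, a membrane protein outside the UNC5 family, and CLDND1, a claudin-domain protein, came in through the letters of their symbols. The 66 genes carry 235 of the 19762 named probes, and 122 of these probes, in 41 genes, had input DNA well above background in all 6 bulls and could be tested. At least 3 tested probes were present in 18 genes, which are the gene regions below, and 25 genes had no tested probe, among them NLGN1, ROBO1, ROBO4, UNC5B, UNC5D and CDH17.

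Cadherins and protocadherins join cells through calcium-dependent contacts between like molecules, and claudins seal tight junctions. Ephrins, semaphorins and Slit proteins are cues that steer cells and axons through Eph, plexin and Robo receptors, while neurexins and the IgLON proteins hold or shape synapses. CpG-rich promoters of such developmental genes are, as a rule, kept free of DNA methylation in mammalian sperm, and cytosine methylation elsewhere in these genes is common.

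Sperm DNA of 3 subfertile bulls (1, 4 and 5) was compared with that of 3 high-fertile bulls (2, 3 and 5) of the water buffalo, Bubalus bubalis, with 1 array per bull. DNA from frozen semen was sheared, fragments carrying 5-methylcytosine were pulled down with an antibody (methylated DNA immunoprecipitation), and the precipitated (IP) DNA was hybridised with the input DNA of that bull on an array of CpG island and promoter probes. The design text of the series names cattle, Bos taurus, beside the buffalo. How fertility was scored, and the bulls' ages, are not given in the labels used here. A level is log2(IP/input) less the median of all probes on that array, so 0 is the median probe and not the absence of methylation, and the level is no share of methylated cytosines.

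Precipitated DNA was well above background at 47.3% to 85.2% of probes in the subfertile bulls and at 37.6% to 78.8% in the high-fertile bulls. The arrays were scanned on 3 dates: subfertile 4 with high-fertile 2 and 3, then subfertile 1 alone, then subfertile 5 with high-fertile 5. Date 1 is called the first session here, and dates 2 and 3 are pooled as the later session (subfertile 1 and 5, high-fertile 5). Each session so defined holds both groups, but date 2 holds only subfertile 1. Subfertile 5 and high-fertile 5 shared slide 1, and the other arrays were on slide 2. The array of subfertile 1 was extracted with another protocol of the scanner software (CGH in place of ChIP). With 6 arrays, precision is limited by their number. Probes named for imprinted genes, whose place relative to the imprint mark is not known, did not split as marks in sperm would. SGCE, marked on the maternal copy, lay at -0.74, but PEG10 and IGF2R, marked likewise, at 0.02 and 0.28. The paternally marked RTL1 lay at 0.08 and RASGRF1 at -0.15.

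The probes that carry the highest and the lowest levels of the set are printed as the array files list them, 5′ to 3′ and 60 bases each, with CpG dinucleotides, the sites an antibody against 5-methylcytosine can mark, in capitals. The genome build and the strand of these positions are not given in the sources used here. CDH6 and CDH7 hold the 2 highest tested probes, and OPCML and PCDHA13 the 2 lowest.
CDH6 chr20:44748056-44748115: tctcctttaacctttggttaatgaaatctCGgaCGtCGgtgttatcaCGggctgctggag
CDH7 chr24:11364635-11364694: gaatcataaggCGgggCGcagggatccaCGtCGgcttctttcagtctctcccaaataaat
OPCML chr29:35602920-35602979: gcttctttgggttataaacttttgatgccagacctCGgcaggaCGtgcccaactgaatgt
PCDHA13 chr7:51416616-51416675: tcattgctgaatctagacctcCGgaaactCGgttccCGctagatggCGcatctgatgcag
These 4 probes hold 2 or 4 CpGs each, so the highest and the lowest probes all hold CpGs.

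CDH6 and CDH7 are type II cadherins, known from kidney and neural crest development. The CDH6 probe read 0.73, 1.86 and 1.11 in subfertile bulls 1, 4 and 5, and 0.43, 2.34 and 0.76 in high-fertile bulls 2, 3 and 5. Every bull lay above the array median, and high-fertile 2 and high-fertile 3 were the lowest and the highest, so the groups overlapped. Levels at the CDH7 probe were 0.94, 1.75 and 0.97 in the subfertile bulls, and 0.90, 1.39 and 0.96 in the high-fertile bulls, again above the median in all 6 bulls. OPCML, a cell adhesion protein of the IgLON family, read -1.16, -1.11 and -1.14 in the subfertile bulls, and -0.63, -0.53 and -0.99 in the high-fertile bulls at its lowest probe, where precipitated DNA was well above background in 2 of 3 subfertile and 1 of 3 high-fertile bulls. PCDHA13, a member of the protocadherin alpha cluster, stood at -1.03, -0.22 and -1.16 in the subfertile bulls, and -0.72, -1.58 and -0.52 in the high-fertile bulls on its only tested probe. Both probes lay below the median in every bull, PCDHA13 with a wide spread.

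Across the 18 gene regions, the median level was -0.12, against -0.18 over all 737 gene regions of the array. The limma test of the level against 0 called 1 of the 18 above the array median, where 0.950% of all gene regions were called above, and 3 of the 18 below it, where 20.1% were. PLXNC1, a plexin that serves as a semaphorin receptor, was the region above: it read 0.29, 0.31 and 0.27 in subfertile bulls 1, 4 and 5, and 0.23, 0.39 and 0.43 in high-fertile bulls 2, 3 and 5, a mean of 0.32 ± 0.08 (SD, n = 6; limma adjusted p = 0.0476). The 6 bulls lay close together in this mean, all of them above 0, but the 4 tested PLXNC1 probes averaged between -0.07 and 0.70. Leaving out any 1 bull ended this call, with limma adjusted p from 0.0762 to 0.173, and the level was then between 0.30 and 0.35.

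OPCML, SEMA6D and SLIT2 were the regions below. OPCML levels were -0.82, -0.84 and -1.11 in the subfertile bulls, and -0.29, -0.57 and -0.78 in the high-fertile bulls, averaging -0.74 ± 0.28 (SD, n = 6; limma adjusted p = 0.00609), and the call held whichever bull was left out. SEMA6D, a transmembrane semaphorin, had -0.62, -0.20 and -0.53 in the subfertile bulls, and -0.97, -0.19 and -0.70 in the high-fertile bulls, with a mean of -0.54 ± 0.30 (SD, n = 6; limma adjusted p = 0.0239). SLIT2, a secreted ligand of Robo receptors, measured -0.65, -0.32 and -0.43 in the subfertile bulls, and -0.90, -0.06 and -0.80 in the high-fertile bulls, or -0.53 ± 0.32 on average (SD, n = 6; limma adjusted p = 0.0258). In each of these 3 genes all 6 bulls lay below the median, with high-fertile 2 the highest at OPCML and high-fertile 3 the highest at SEMA6D and SLIT2. Over the 3 tested OPCML probes, precipitated DNA was well above background in 7 of 9 readings of the subfertile and 5 of 9 of the high-fertile bulls. For SEMA6D these counts were 10 of 12 and 7 of 12, and for SLIT2 8 of 9 and 7 of 9. The SEMA6D and SLIT2 calls were lost without subfertile 1, subfertile 5 or high-fertile 2, with limma adjusted p up to 0.0969 for each gene, and held without any of the other three. Centring on the tested probes instead moved the median of all gene regions from -0.18 to -0.02, and then PLXNC1 and OPCML were called (limma adjusted p = 0.0223 and 0.0367) but SEMA6D and SLIT2 were not (limma adjusted p = 0.125 and 0.146).

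The split of calls moved with the scaling and the background step. It was 1 above and 1 below with the tested probes as the centre, where 17 and 44 of all 737 regions were. With each probe centred on probes of like CpG number it was 2 above and 1 below, where 20 and 55 were. With normexp background correction it was 0 above and 6 below, where 1 and 268 were. Under normexp PLXNC1 lay at 0.04 (limma adjusted p = 0.701), while OPCML, SEMA6D and SLIT2 were called at -0.33, -0.21 and -0.32. Without the filter on dim probes, which brings in probes with input DNA near background, 0 of the members were called, and 3 of all 2791 regions. There OPCML lay at -0.17 (limma adjusted p = 0.614) and SEMA6D and SLIT2 turned to 0.32 and 0.08.

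**Figure D1:**
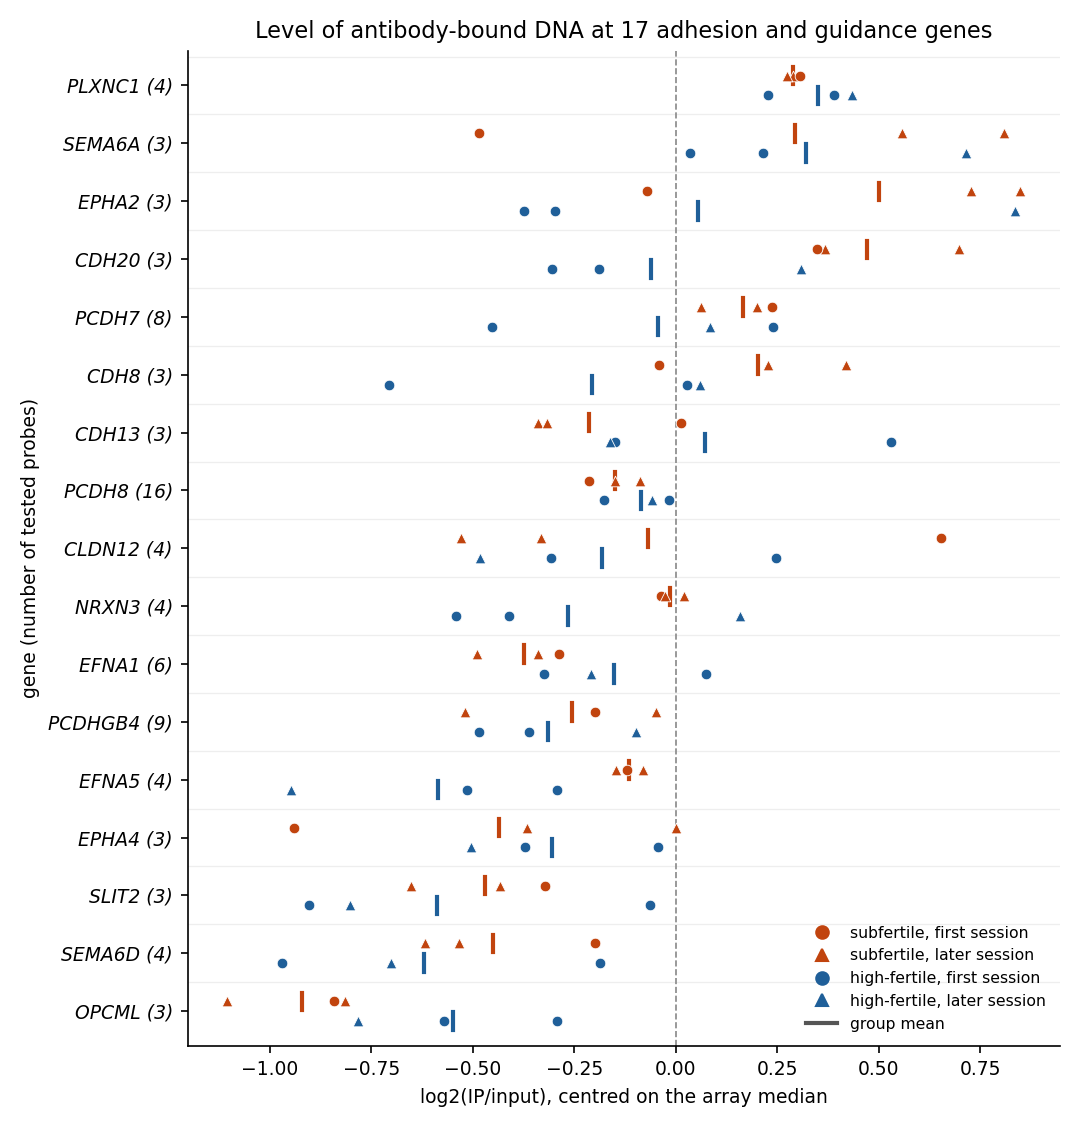
Level of antibody-bound DNA (log2 IP/input, centred on the array median, horizontal axis) at 17 of the 18 genes with at least 3 tested probes, subfertile bulls above high-fertile bulls in each row, circles for the first and triangles for the later scan session, bars for group means. All 6 bulls lie above 0 at PLXNC1 and below 0 at OPCML, SEMA6D and SLIT2.

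With the scan session as a block, 10 of the 18 regions were called: 3 above the median (PLXNC1, EPHA2 and SEMA6A), where 5.56% of all regions were, and 7 below it, where 38.4% were. The 7 were the ephrins EFNA1 and EFNA5, the receptor EPHA4 and the protocadherin PCDHGB4 besides OPCML, SEMA6D and SLIT2. Among the regions called in neither fit, CDH20 averaged 0.21 ± 0.38, CDH13 -0.07 ± 0.32, CDH8 -0.0027 ± 0.38, NRXN3 -0.14 ± 0.27, PCDH7 0.06 ± 0.26, PCDH8 -0.12 ± 0.08 and CLDN12 -0.13 ± 0.47 (SD, n = 6 each). PCDH8, the protocadherin also called arcadlin, had bulls between -0.21 in subfertile 4 and -0.02 in high-fertile 3, a spread (SD) as small as that of PLXNC1.

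The even mean of PCDH8 covers unlike probes. Its 16 tested probes averaged between -0.59 and 0.31 over the 6 bulls. The 9 probes of PCDHGB4, in the protocadherin gamma cluster, averaged between -0.62 and 0.15. Those of PCDH7 spanned -0.24 to 0.45 (8 probes) and those of EFNA1 -0.68 to -0.01 (6 probes). Among these 4 genes, EFNA1 alone had every probe averaging below 0.

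Genes with 1 or 2 tested probes were read through those probes. Among all 41 genes with at least 1 tested probe, the limma fit called CDH7 above the median, where 0.210% of all such genes were, and OPCML below it, where 3.08% were. By family, the 10 classical and related cadherins had a median level of 0.33, from -0.34 (CDH2, neural cadherin) to 1.15 (CDH7), and 6 of the 10 lay above 0. CDH1, epithelial cadherin, averaged 0.56 and CDH5, the cadherin of blood vessel walls, 0.72, each from 1 probe and above 0 in all 6 bulls. They did not pass the test over the genes (limma adjusted p = 0.0902 and 0.0759) but passed it over all tested probes (limma adjusted p = 0.041 and 0.0277), where 2.74% of all probes were called above. CDH10, a type II cadherin, read 0.05, 1.4018 and 0.16 in the subfertile bulls, and -0.10, 1.51 and -0.34 in the high-fertile bulls, with subfertile 4 and high-fertile 3 far above the other 4 bulls. On this scaling all 3 ephrins lay below 0 (median -0.35), as did both IgLON genes. The 4 claudins had a median of -0.26, and CLDN12 among them turned to 0.04 with the tested probes as the centre. Over the 41 genes the median was -0.01, against -0.14 over all 4286 genes, and the spread of family medians rests on 1 to 10 genes each and was not tested. CNTN5, a contactin of the nervous system, spread widest, with -0.56, 0.75 and -1.11 in the subfertile bulls, and 1.31, 2.17 and -1.84 in the high-fertile bulls on its only tested probe. There the 3 bulls of the first session were above 0 and the 3 of the later session below it.

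Most probes on the array carry no gene name, so probes that follow each other within 500 bp were also averaged into runs. A run includes unnamed probes beside the named ones. Of 9335 runs, 42 hold a probe named for these genes, and the limma test of the level, added after the data were seen, called 10 of the 42: 3 above the median, where 4.31% of all runs were, and 7 below it, where 24.3% were. The run at the CDH6 probe (chr20:44748023-44748121, 10 probes) read 0.79, 1.09 and 1.02 in subfertile bulls 1, 4 and 5, and 0.05, 1.74 and 1.09 in high-fertile bulls 2, 3 and 5, a mean of 0.96 (limma adjusted p = 0.00607). High-fertile 2 sat near 0 and the other 5 bulls well above it. The CDH7 run (chr24:11364635-11364803, 4 probes) averaged 1.09 (limma adjusted p = 0.00627), with bulls between 0.30 in high-fertile 5 and 1.99 in high-fertile 3. Both cadherin runs were called whichever bull was left out. The PLXNC1 run (chr5:26712523-26712661, 18 probes) averaged 0.45 (limma adjusted p = 0.0316) and was called without subfertile 4 or high-fertile 5, but not without any of the other four, where the limma adjusted p reached 0.144.

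Among the runs below the median, that of OPCML (chr29:35602776-35603043, 21 probes) was the lowest at -0.80, with bulls at -0.75, -0.77 and -1.08 in the subfertile bulls, and -0.92, -0.47 and -0.81 in the high-fertile bulls (limma adjusted p = 0.0017). The next were SEMA6D at -0.56 (15 probes, limma adjusted p = 0.0127) and PCDH17, a protocadherin of the brain, at -0.53 (17 probes, limma adjusted p = 0.00807). PLXNA2, a plexin that pairs with neuropilins as a semaphorin receptor, followed at -0.44 (14 probes, limma adjusted p = 0.0304). The Eph receptor EPHA4 read -0.40 over 33 probes, its ligand EFNA5 -0.35 over 4, and EFNA1 -0.32 over 64 (limma adjusted p = 0.0256, 0.048 and 0.0415). All 6 bulls lay below 0 in each of these 7 runs. In the SEMA6D run precipitated DNA was well above background in 37 of 45 readings of the subfertile and 20 of 45 of the high-fertile bulls. In the OPCML run it was so in 51 of 63 and 42 of 63. The OPCML call held whichever bull was left out, and that of PCDH17 was lost only without subfertile 5 (limma adjusted p = 0.0555). SEMA6D was lost without high-fertile 2 or subfertile 5 (limma adjusted p up to 0.0713) and EPHA4 without any 1 subfertile bull or high-fertile 2 (up to 0.113). PLXNA2 and EFNA1 were called only without high-fertile 5, and EFNA5 only without high-fertile 3, with limma adjusted p otherwise up to 0.0917, 0.174 and 0.159. With the tested probes as the centre the median of all runs moved from -0.15 to 0.01 and the split of calls became 8 above and 2 below, the 2 being OPCML and PCDH17, with EFNA1 at -0.16 (limma adjusted p = 0.206). The split was 6 above and 4 below with CpG-matched centring, 2 above and 11 below with normexp, and 6 above and 1 below, of 49 runs, without the filter. Without the filter the OPCML run lay at -0.33 (limma adjusted p = 0.138). With normexp the OPCML run lay at -0.37, the CDH6 run at 0.48 and the CDH7 run at 0.53, all called, and the PLXNC1 run at 0.16 (limma adjusted p = 0.359).

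**Figure D2:**
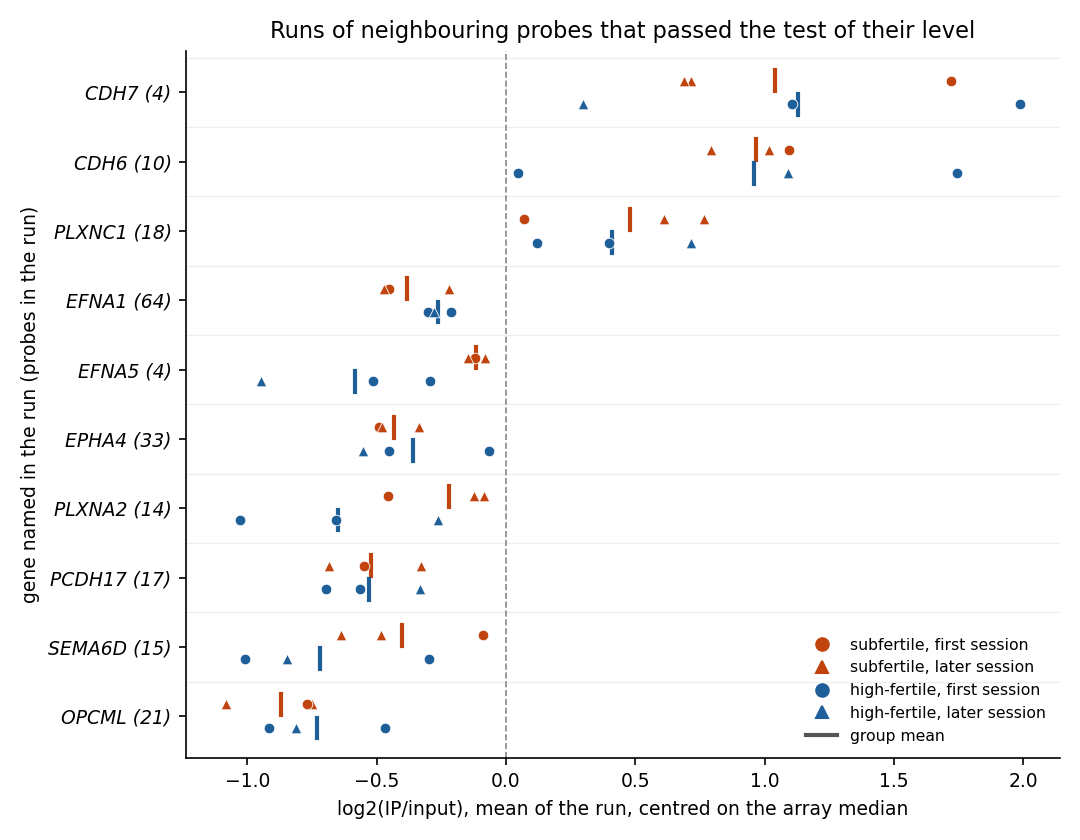
Level of the 10 runs of neighbouring probes that passed the limma test of their level (log2 IP/input, centred on the array median, horizontal axis), subfertile bulls above high-fertile bulls in each row, circles for the first and triangles for the later scan session, bars for group means. The CDH6, CDH7 and PLXNC1 runs lie above 0 in all 6 bulls and the other 7 below 0.

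Levels also parted within single genes. At PCDH17 the run at chr12:3680429-3680892 (14 probes) averaged 0.20, with 0.61, -0.14 and 0.47 in the subfertile bulls, and -0.31, -0.16 and 0.71 in the high-fertile bulls, while the run called below the median lies at chr12:3678504-3679503. The 3 bulls of the later session were above 0 in the second PCDH17 run and the 3 of the first session below it. At PLXNC1 a further run of 9 probes (chr5:26713851-26714250) averaged -0.20, against 0.45 in the run called above. Subfertile bulls read -0.29, -0.15 and -0.70 in the further run, and high-fertile bulls 0.12, 0.20 and -0.39. In the run called above they read 0.61, 0.07 and 0.76, and 0.12, 0.40 and 0.71. The 3 bulls of the later session were thus the highest in the run called above and the lowest in the further run. These contrasts within genes were not tested.

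The question of the series is how subfertile and high-fertile bulls differ. Of the 18 gene regions, 0 passed the limma test of subfertile minus high-fertile at an adjusted p under 0.05, as did 0% of all 737 regions, and the smallest adjusted p was 1. At an unadjusted p under 0.05, 0 of the 18 and 6 of the 737 stood. The median difference was 0.09 over the 18 regions and 0.08 over all 737, and 11 of the 18 were positive. The 3 bulls of a group all lay beyond the 3 of the other in 3 of the 18 regions (16.7%): CDH20, EFNA5 and OPCML. Over all regions this share was 2.99%.

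CDH20, a type II cadherin, read 0.37, 0.35 and 0.70 in subfertile bulls 1, 4 and 5, and -0.19, -0.30 and 0.31 in high-fertile bulls 2, 3 and 5. The subfertile bulls were all higher, with subfertile 4 just above high-fertile 5. The difference was 0.53 (SE 0.24, 95% interval -0.01 to 1.08, limma adjusted p = 1), and with 1 bull left out it was 0.41 to 0.72. It was 0.41 with the session as a block, 0.60 within the first session and 0.23 within the later one, and 0.11 without the filter on dim probes. Its 3 probes did not move alike: that at 62609788 read -0.07, 1.35 and 0.33 in the subfertile bulls, and 0.60, 0.71 and -0.65 in the high-fertile bulls, and that at 62624227 read 0.76, -0.19 and 1.16 in the subfertile bulls, and -0.71, -0.86 and 0.98 in the high-fertile bulls. The bulls of the first session were high at the one and low at the other.

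EFNA5, the ligand ephrin-A5, measured -0.08, -0.12 and -0.15 in subfertile bulls 1, 4 and 5, and -0.52, -0.29 and -0.95 in high-fertile bulls 2, 3 and 5, again with every subfertile bull higher. The difference was 0.47 (SE 0.23, 95% interval -0.05 to 0.99, limma adjusted p = 1), or 0.29 to 0.62 with 1 bull left out, 0.28 within the first session and 0.83 within the later. With normexp it was 0.20. The later session alone, in which the lone high-fertile bull is taken to vary as much as the 2 subfertile bulls do, called EFNA5 (SE 0.19, limma adjusted p = 0.0475), as it did 0.543% of all regions. EFNA5 has 4 tested probes, and on the last of them (starting at 108575189) 1 of 3 subfertile and 0 of 3 high-fertile bulls had precipitated DNA well above background, so its level there is only a bound. That probe read -2.26 in high-fertile 5, the lowest value of the gene. Within the later session its difference was 2.12, against 0.54, 0.51 and 0.16 on the other EFNA5 probes in order of position. The later session was not fitted without this probe.

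OPCML was lower in every subfertile bull, with the values given above, and the difference was -0.37 (SE 0.22, 95% interval -0.88 to 0.13, limma adjusted p = 1), or -0.49 to -0.24 with 1 bull left out, and -0.16 with normexp. The 21 probes of its run overlapped between the groups and differed by -0.14 (SE 0.23). Of the 42 runs only that of EFNA5, made of the same 4 probes as the gene region, had groups that did not overlap (2.38%), against 2.82% of all 9335 runs. Limma called 0 of the 42 runs, as it did 0 of all 9335, and 0 of 42 had an unadjusted p under 0.05, against 43 of 9335.

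Among the other ligands, EFNA1 read -0.34, -0.29 and -0.49 in the subfertile bulls, and -0.32, 0.07 and -0.21 in the high-fertile bulls, a difference of -0.22 (SE 0.21) with overlapping groups. The semaphorins SEMA6A and SEMA6D differed by -0.03 (SE 0.35) and 0.17 (SE 0.26), and SLIT2 by 0.12 (SE 0.27). The receptors EPHA2, EPHA4 and PLXNC1 differed by 0.45 (SE 0.38), -0.13 (SE 0.28) and -0.06 (SE 0.20). EPHA2 had the widest interval, -0.41 to 1.30, and its difference was 0.11 once the session was a block.

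Among the adhesion genes, CDH8 differed by 0.41 (SE 0.27) and CDH13, the cadherin without a cell-spanning domain, by -0.29 (SE 0.26). The protocadherins PCDH7, PCDH8 and PCDHGB4 differed by 0.21, -0.07 and 0.06 (SE 0.24, 0.20 and 0.23). NRXN3, a neurexin, stood at 0.25 (SE 0.24), and CLDN12, a claudin, at 0.11 (SE 0.34). At CLDN12 precipitated DNA was well above background in 12 of 12 readings of the subfertile and 7 of 12 of the high-fertile bulls. In all 18 genes the 95% interval of the difference held 0, and the narrowest, at PCDH8, ran from -0.51 to 0.38.

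**Figure D3:**
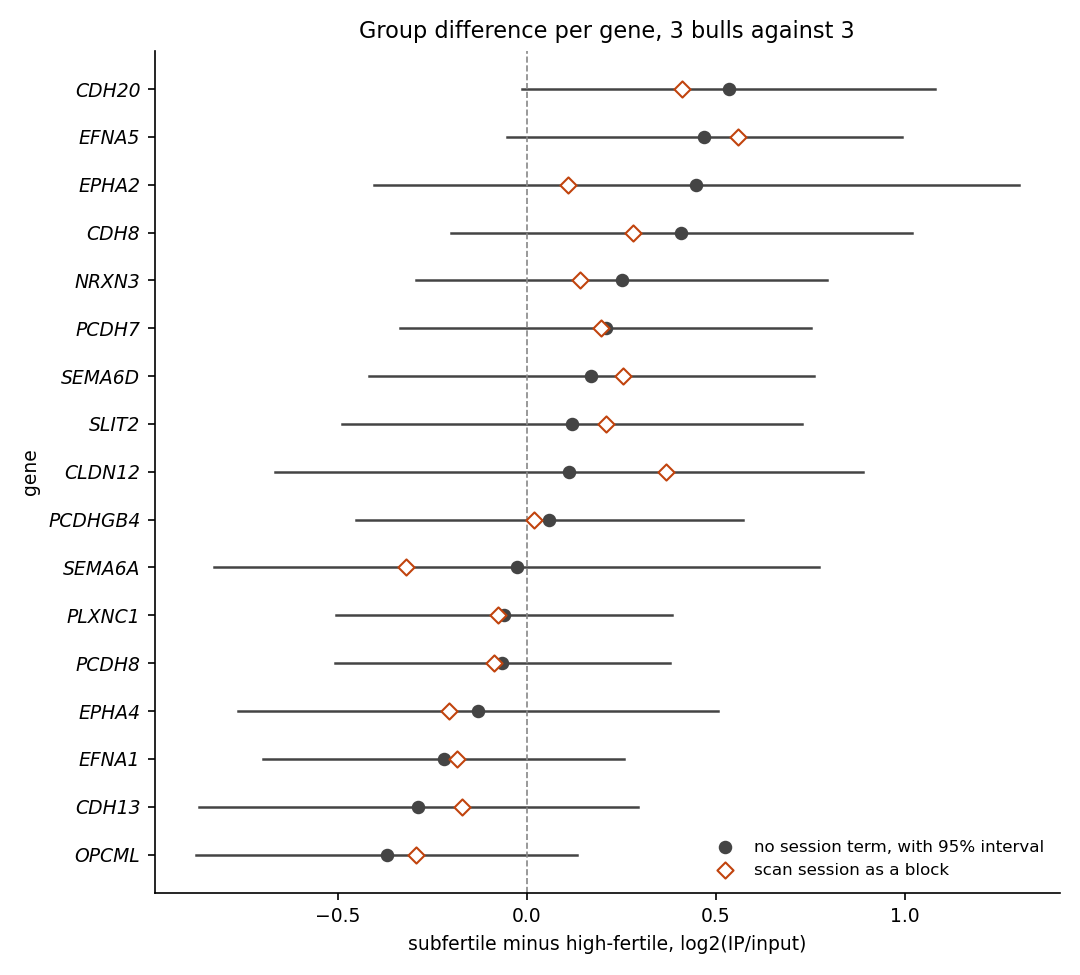
Subfertile minus high-fertile difference in log2(IP/input) for 17 of the 18 genes with at least 3 tested probes (dots, with limma's 95% intervals) and the same difference with the scan session as a block (diamonds). Every interval crosses 0, and CDH20, EFNA5 and OPCML lie at the ends.

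At single probes, 16 of the 122 tested (13.1%) had groups that did not overlap, 7 higher and 9 lower in the subfertile bulls, where 5.78% of all tested probes did. At the level of genes with at least 1 tested probe it was 5 of 41 (12.2%), the other two being CLDN8 and SEMA4A with 1 probe each, against 3.87% of all such genes. No member probe passed the limma test, as with 0% of all 110686 probes, and 4 of 122 had an unadjusted p under 0.05, against 2036 of 110686. The probes with the smallest p in each direction, both in EFNA1, are shown with a neighbour, followed by the 2 EFNA5 probes, CpGs in capitals.
EFNA1 chr3:16853648-16853707: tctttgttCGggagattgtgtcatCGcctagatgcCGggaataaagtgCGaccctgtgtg
EFNA1 chr3:16853913-16853972: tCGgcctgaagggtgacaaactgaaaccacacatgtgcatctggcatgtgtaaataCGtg
EFNA1 chr3:16853948-16854007: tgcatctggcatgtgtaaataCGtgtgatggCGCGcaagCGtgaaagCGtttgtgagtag
EFNA5 chr7:108574069-108574128: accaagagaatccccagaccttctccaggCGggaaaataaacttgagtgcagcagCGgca
EFNA5 chr7:108574594-108574653: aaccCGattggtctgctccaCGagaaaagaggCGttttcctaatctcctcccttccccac
The second and the third of these EFNA1 probes share 25 bases, the start of the third being shifted by 35.

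The EFNA1 probe at 16853648 read 0.15, 0.41 and 0.07 in subfertile bulls 1, 4 and 5, and -1.56, -0.69 and -0.19 in high-fertile bulls 2, 3 and 5. Its difference was 1.02 (SE 0.38, limma adjusted p = 1). At 16853948 the order was reversed: -0.80, -1.10 and -1.15 in the subfertile bulls, and 0.12, 2.03 and -0.64 in the high-fertile bulls, a difference of -1.52 (SE 0.58, limma adjusted p = 1). High-fertile 3 alone stood far above 0, and without it the difference was -0.76. The probe at 16853913, which overlaps it, read -0.67, -0.74 and -0.63 in the subfertile bulls, and -0.73, -0.83 and -0.48 in the high-fertile bulls, within a narrow band in all 6 bulls. EFNA1 thus held the largest difference of each sign among the 122 probes. With normexp these were 0.47 and -0.82. At 16853648 precipitated DNA was well above background in 3 of 3 subfertile and 2 of 3 high-fertile bulls. The probe at 16853913, which differed by 0.01, is 1 of 25 tested probes that overlap the one at 16853948. Of these 25, 13 differed with the same sign as that probe.

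EFNA5 was more even. Its probe at 108574069 read -0.20, -0.28 and -0.24 in the subfertile bulls, and -0.37, -0.78 and -0.76 in the high-fertile bulls, and that at 108574594 read -0.39, -0.61 and -0.22 in the subfertile bulls, and -0.62, -0.95 and -0.81 in the high-fertile bulls. Both were below 0 in every bull and higher in every subfertile bull, by 0.40 (SE 0.29) and 0.39 (SE 0.29). On the other two EFNA5 probes a single high-fertile bull stood low, high-fertile 2 at -1.53 on the third and high-fertile 5 at -2.26 on the fourth, and the groups overlapped.

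**Figure D4:**
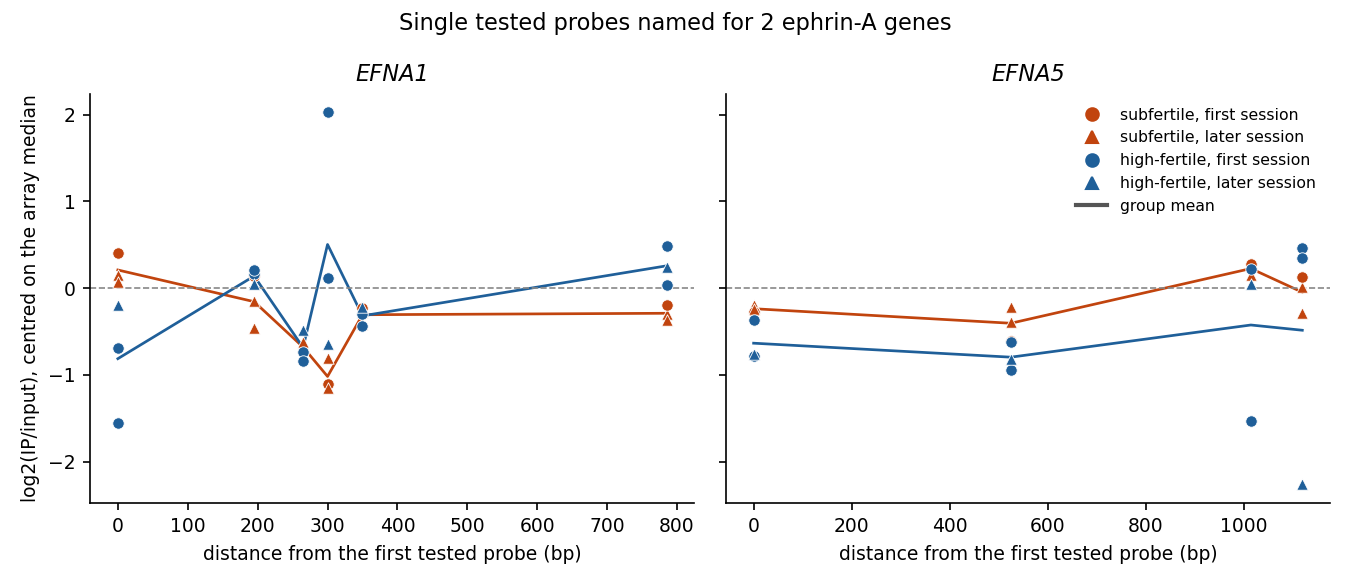
Level (log2 IP/input, centred on the array median, vertical axis) of each tested probe named for EFNA1 (left) and EFNA5 (right) by its distance in bp from the first tested probe of the gene, with subfertile and high-fertile bulls as points, circles for the first and triangles for the later scan session, and lines through group means. The group lines cross along EFNA1 and stay apart along EFNA5, where single high-fertile bulls stand low on the last 2 probes.

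Overlapping probes read nearly the same DNA. Of the 16 probes with groups that did not overlap, 11 had tested probes whose 60 bases overlap theirs, 158 such pairings in all, and in 97 of these (61.4%) the neighbour's difference had the same sign. Of the pairings, 68 lie beside a probe that was higher and 90 beside one that was lower in the subfertile bulls. Over all tested probes 61.4% of differences were positive and 38.6% negative. The share of like signs is therefore to be set against both, weighted by 68 and 90, and not against the positive share alone. In 9 of the 158 pairings (5.7%), at 5 of the 11 probes, the neighbour's groups did not overlap either, in the same direction, where 3.2% of all tested probes did so higher and 2.58% lower in the subfertile bulls. The PLXNA2 probe was the best matched: it read -0.13, -0.63 and -0.31 in the subfertile bulls, and -0.69, -1.0013 and -0.64 in the high-fertile bulls, a difference of 0.42 (SE 0.30), and 12 of its 13 neighbours had the same sign, 4 of them with groups that did not overlap, at a median difference of 0.48. At the EFNA1 probes with the largest differences, the neighbours' median was -0.08 beside the positive one and -0.05 beside the negative one.

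Other probes of this kind lie in PCDH8 (4 probes, 1 higher and 3 lower in the subfertile bulls), PCDH7, OPCML, EFNA1, PLXNA4, SEMA4A and CLDN8. PLXNA4, a receptor for class 3 semaphorins, read -0.15, 0.19 and -0.45 in the subfertile bulls, and 0.44, 1.32 and 0.29 in the high-fertile bulls on a probe with no tested neighbour, where precipitated DNA was well above background in 1 of 3 subfertile and 2 of 3 high-fertile bulls. SEMA4A, a class 4 semaphorin, read -0.41, -0.20 and -0.60 in the subfertile bulls, and 0.35, 0.52 and -0.05 in the high-fertile bulls on a probe without a CpG. CLDN8, a claudin of epithelial tight junctions, read -0.03, -0.07 and -0.64 in the subfertile bulls, and 0.24, 0.41 and 0.05 in the high-fertile bulls. The PCDH8 probes at 9553627 and 9553872 differed by 0.42 and -0.36.

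More of these genes passed the test by scan session than by fertility group. In the limma fit with group as a second term, 2 of the 18 regions were higher in the later session, where 14.0% of all regions were, and 1 was lower, where 6.78% were. EPHA2 averaged 0.80 in the later and -0.25 in the first session, a difference of 1.02 (SE 0.18, limma adjusted p = 0.00945). SEMA6A averaged 0.69 and -0.08, a difference of 0.88 (SE 0.20, limma adjusted p = 0.0236). CLDN12 averaged -0.45 and 0.20, a difference of -0.77 (SE 0.23, limma adjusted p = 0.0424). Leaving out subfertile 1, subfertile 4 or high-fertile 5 left 0 of the 18 called by session, and 1, 3 and 0 of all 737. Leaving out subfertile 5 left EPHA2 alone, and 53 of all 737. The median session difference of all regions was 0.17, and -0.07 with the tested probes as the centre. The split of calls was then 1 higher and 2 lower, where 26 and 82 of all 737 regions were. EPHA2 at 0.78 and CLDN12 at -1.01 were called and SEMA6A at 0.64 was not (limma adjusted p = 0.0746). With normexp the split was 4 higher and 0 lower, where 248 and 42 of all 737 were. Without the filter on dim probes it was 1 higher and 14 lower of 31 member regions, and 70 higher and 1529 lower of all 2791, whose median session difference was -0.82. A test of whether the group difference changed with the session called 0 of 737 regions (25 at an unadjusted p under 0.05), with 0 of the 18 called and 1 at an unadjusted p under 0.05.

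**Figure D5:**
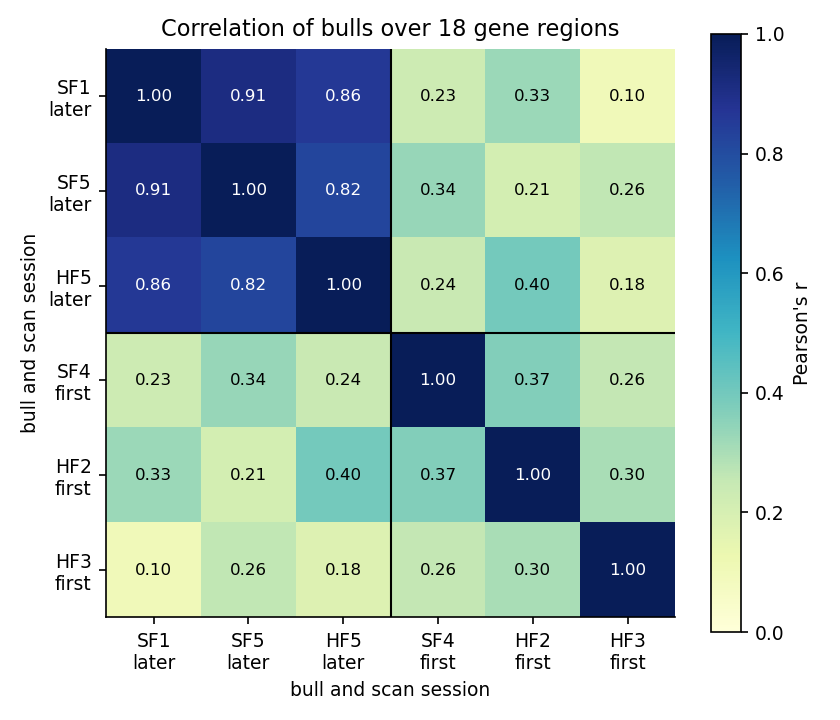
Pearson's r between bulls over the 18 gene regions, bulls of the later session first and those of the first session after them. Later-session bulls correlate at 0.82 to 0.91 with each other whatever their group, first-session bulls at 0.26 to 0.37, and pairs across sessions at 0.10 to 0.40.

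Over the 18 regions the arrays of 1 session correlated at 0.26 to 0.91 (6 pairs) and arrays of different sessions at 0.10 to 0.40 (9 pairs). By group the ranges were 0.18 to 0.91 within a group (6 pairs) and 0.10 to 0.86 between groups (9 pairs). All points of such a correlation share their probes and their dyes, so it describes the arrays and carries no test. Subfertile 1 and 5 with high-fertile 5 were the 3 arrays that resembled each other most.

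Methylated cytosines in sperm lie in CpGs, and the number of CpGs within the 60 bases of a probe went with the level weakly or not at all. The antibody captures sheared fragments of 300 to 1000 bp, and CpGs of a fragment outside the probe were not counted. Across the 122 tested member probes Pearson's r between CpG number and mean level was -0.08, against -0.16 over all 110686 tested probes, the probes sharing the same 6 libraries. Median levels were -0.04 for 35 probes with at most 1 CpG, -0.11 for 48 probes with 2 or 3, and -0.10 for 39 probes with 4 to 6. The array-wide medians for the same bins were -0.08, -0.14 and -0.24.

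Of 104 partner genes of these proteins, such as catenins, desmosomal cadherins, netrins and their receptors and synaptic scaffolds, 53 were on the array and 5 had at least 3 tested probes. None of the 5 was called between the groups. ESAM, an adhesion protein of blood vessel walls, was called below the array median at -0.38 ± 0.08 (SD, n = 6; limma adjusted p = 0.0266), with -0.37, -0.42 and -0.51 in the subfertile bulls, and -0.34, -0.28 and -0.33 in the high-fertile bulls. VCL, which codes for the junction protein vinculin, averaged -1.06 in the later and 1.02 in the first session (difference -2.10, SE 0.33, limma adjusted p = 0.00647). The alpha-catenin gene CTNNA2, the large cadherin FAT1 and the netrin relative NTNG2 had levels of -0.27, 0.03 and -0.31 and group differences of 0.03, 0.15 and 0.10 (SE 0.22, 0.26 and 0.23).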

How the data were processed

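Methylated DNA immunoprecipitation was read on a 2-colour Agilent array in 3 subfertile and 3 high-fertile buffalo bulls, with input DNA in Cy3 and precipitated DNA in Cy5 on every array, so a dye effect cannot be told apart from precipitation. The deposited channel intensities are the processed signals of Agilent Feature Extraction 10.7.3.1, background-subtracted and dye-normalized per the file headers. The log10 ratios in those files and the deposited table of log2 ratios were made by the authors from the same signals. The deposited log2 ratios equal the scanner's ratios for 177439 of 177440 probes once both are on a log2 scale, and 1 probe has none.

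Levels were computed as log2 of the red over the green processed signal less the median of that value over the non-control probes of the array, with no loess or quantile step. Probes with input well above background on all 6 arrays and no non-uniformity mark were tested (110686). Gene regions are means of at least 3 tested probes of a name. Runs are at least 3 tested probes with gaps of at most 500 bp. Gene names stand in 3 of the 6 files and were carried to the others by probe. Of the 66 genes, 61 matched a symbol in a RefSeq table of the buffalo assembly NDDB_SH_1, which was used for names only, and the deposited names were kept. Some member probes have a second spot of the same sequence and position without a name, which entered runs as a probe of its own.

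limma 3.58.1 in R 4.3.3 (lmFit, eBayes) was fitted across all gene regions, probes or runs, with Benjamini-Hochberg adjustment over the whole table and 2-sided tests. Tables were read with the data.table package (version 1.17.8) and plots drawn with matplotlib 3.10.9. The fit was tested on simulated data. Each array is 1 bull, so p-values rest on the spread between arrays, in which differences between bulls, slides and scan dates are mixed.

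The members and lists were chosen with earlier results of these data known. Named are all genes with at least 3 tested probes bar 1, up to 8 probes per direction whose groups did not overlap with the smallest unadjusted p, the 5 highest and 5 lowest probes by level, up to 4 runs per direction and partner genes with at least 3 tested probes. CDH1, CDH2, CDH10 and CNTN5, the runs named for their level and the contrasts within genes were chosen after their values were seen. Alternatives were normexp with offset 50 on mean signal and local median background, other filters on dim probes, centring on tested probes or on probes of like CpG number, the deposited log2 table, scan session and slide as blocks, each session alone, other minimum probe numbers and each bull left out in turn. The tests of the level of runs and of the single probes of CDH1 and CDH5 were added after seeing the data. The sources used here do not say whether a probe lies in a promoter, exon or intron. The values of 1 gene with at least 3 tested probes and the sequence of 1 probe are not reported here; both stay in the counts and fits.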

Additional observations from a re-analysis of the deposited data

Results flagged for a closer look

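Across the 18 gene regions, each read in 6 bulls, the level of PCDH7, a non-clustered protocadherin, in high-fertile 2 stood apart from the other 5 bulls. It was -0.45, while the others lay between 0.06 (subfertile 1) and 0.24 (high-fertile 3). The gap to the nearest bull, 0.74 of the whole range, exceeds Dixon's 95% critical value for 6 values. Chance gives about 1 such value in 20 sets of values, and 18 were examined. High-fertile 2 also had the lowest share of probes with precipitated DNA well above background, 37.6%, and the part of this in the PCDH7 value was not tested.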

How the results depend on the processing

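No group difference of a member gene region, probe or run passed limma's test under any alternative except EFNA5 in the later session alone, which makes 1 call, so signs below are of differences within the error. Subfertile minus high-fertile took the other sign with normexp for CLDN12 -0.074, EPHA4 0.070, PCDH8 0.0059, PLXNC1 0.15, SEMA6A 0.29; without the filter on dim probes for CLDN12 -0.50, PCDH7 -0.023, PCDHGB4 -0.087, SEMA6D -0.12, SLIT2 -0.14; with precipitated DNA also above background on all arrays for PCDHGB4 -0.12; with the tested probes as the centre for PCDHGB4 -0.015; with CpG-matched centring for PCDHGB4 -0.0070, SEMA6A 0.0027; and in the later session alone for EPHA2 -0.048, EPHA4 0.32, NRXN3 -0.16, PCDHGB4 -0.19. The sign also turned when 1 bull was left out for CLDN12 (-0.25 to 0.34), EPHA4 (-0.35 to 0.12), PCDHGB4 (-0.045 to 0.19), SEMA6A (-0.29 to 0.36), SEMA6D (-0.0047 to 0.39) and SLIT2 (-0.037 to 0.38). CDH20, EFNA5 and OPCML kept their signs in every alternative run for gene regions, with sizes from 0.11 to 0.72, 0.20 to 0.83 and -0.49 to -0.16. These are the regions whose groups did not overlap. Leaving out a bull, taking a session alone or adding a block could therefore not turn their signs, and only the other alternatives could. The median difference of all regions was 0.08, -0.26 without the filter and 0.0043 with the tested probes as the centre.

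Levels crossed the array median with normexp for PCDH7 -0.056; without the filter for CDH13 0.026, CDH8 0.36, CLDN12 0.17, PCDH8 0.060, SEMA6D 0.32, SLIT2 0.080; with the tested probes as the centre for CDH13 0.092, CDH8 0.16, CLDN12 0.038, NRXN3 0.024, PCDH8 0.045; with CpG-matched centring for CDH13 0.049, CDH8 0.17, CLDN12 0.054, NRXN3 0.028, PCDH8 0.0076; and with 1 bull left out for CDH8 (-0.069 to 0.12) and PCDH7 (-0.0093 to 0.16). The 4 level calls became 0 without the filter, where the median of all regions was 0.31, and 0 with precipitated DNA above background on all arrays, where 6 member regions remained. They became 2 with the tested probes as the centre, 10 with the session as a block, 2 over genes with at least 1 probe, and 1 to 4 with a bull left out. Over all regions the calls were 155 of 737, 3 of 2791 without the filter and 35 of 271 with precipitated DNA above background. They were 61 of 737 with the tested probes as the centre and 324 of 737 with the block. Over genes with at least 1 probe they were 141 of 4286, and 26 to 194 of 737 with a bull left out. Level calls of runs were 10 of 42, against 23 with the session as a block, where 5253 of all 9335 runs were called. With a bull left out they were 3 to 13, where 1008 to 3411 of all 9335 were. Session calls were 3, against 15 of 31 without the filter (1 higher and 14 lower in the later session), with SEMA6A at -0.0090, and 0 to 4 with a bull left out. Over all 737 regions session calls were 153, and 0 to 249 with a bull left out. The causes of these shifts were not tested. No paired analysis was possible because the groups share only 1 replicate number (5), which names different bulls. Signal over background limits 113 of the 235 member probes, which were not tested because input was dim or marked in at least 1 bull.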
